A study of Homo sapiens with 4 samples.

Results

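The genes described here encode enzymes, and core partners of enzymes, that write or erase methyl groups on histones and on DNA, apart from the MLL family of H3K4 methyltransferases. They were chosen by name, and 52 of the 31319 genes in the deposited tables belong to them. By substrate they fall into 8 classes: 19 demethylases, 4 genes of H3K27 methylation, 6 of H3K9, 5 of H3K36 and 3 of H4K20 methylation, 5 other lysine methyltransferases, 3 arginine methyltransferases and 7 genes of DNA methylation. The cells were T24 and UM-UC-3, human bladder cancer cell lines. Each line was kept for 48 h with 140 µM OICR-9429, a small molecule that blocks the docking of MLL1 on WDR5, or with DMSO, its solvent, and RNA was sequenced from 1 library per line and condition, 4 in all. T24 was grown in RPMI-1640 and UM-UC-3 in DMEM, so differences between the lines include the medium. The labels give this dose, but the number 125 stands in the column headings of both treated libraries, and no source used here explains it.

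Lysine methylation on histone tails is placed by SET-domain enzymes and DOT1L, and taken away by the flavin-dependent LSD enzymes KDM1A and KDM1B and by the Jumonji family, which needs iron, oxygen and 2-oxoglutarate. The H3K27 mark of Polycomb repression, the H3K9 mark of heterochromatin, the H3K36 mark of transcribed gene bodies and the H4K20 mark each have their own writers. Cytosine methylation is copied after replication by DNMT1, which UHRF1 brings to newly made DNA, is newly placed by DNMT3A and DNMT3B, and is oxidised by the TET enzymes. Changes in these genes are common in urothelial carcinoma, in which KDM6A is often mutated.

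Read totals worked back from the deposited FPKM (fragments scaled to exon length and to the library's reads) were 28209432 to 29335051 per library, and 11387 to 12115 genes reached an FPKM of 1. Of the epithelial and urothelial markers, KRT8 and KRT18 were present in all 4 libraries at 14.6 to 91.3 FPKM, while KRT5, KRT19, CDH1 and the uroplakins UPK1A, UPK1B and UPK2 stayed at or under 0.810 FPKM. Summed over the 12 markers of this list found, the level was 107 FPKM in OICR-9429 and 172 FPKM in DMSO for T24, and 37.0 FPKM in OICR-9429 and 109 FPKM in DMSO for UM-UC-3, with KRT8 lower and PPARG higher by at least 2-fold in both lines, KRT7 lower in T24 and KRT18 lower in UM-UC-3. KRT8 fell in limma. The 5 mesenchymal markers summed to 101 FPKM in OICR-9429 and 61.7 FPKM in DMSO for T24, where FN1 was higher by at least 2-fold, and to 107 FPKM in OICR-9429 and 221 FPKM in DMSO for UM-UC-3, where VIM and CDH2 were lower. The 2 leukocyte and 4 endothelial markers found were under 1 FPKM throughout. The 13 proliferation genes counted beside the enzymes (MKI67, TOP2A, PCNA and others) were all lower by at least 2-fold in OICR-9429 in each line, with summed levels of 98.8 FPKM in OICR-9429 and 920 FPKM in DMSO in T24, and of 109 FPKM in OICR-9429 and 930 FPKM in DMSO in UM-UC-3. All 13 fell in the limma fit over both lines. The part of these marker changes in any other result was not tested.

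Under OICR-9429, UHRF1, DNMT1, DNMT3B, SUV39H1, SUV39H2 and NSD2 were lower in both lines, EZH2 and EED were lower in T24, KDM3A and KDM7A were higher in both lines, and KDM6B, KDM4C, EZH1 and KMT5C were higher in UM-UC-3. A gene was called in a line when it reached an FPKM of 1 in at least 1 of the line's libraries and FPKM + 0.5 differed between them by 2-fold or more. This is a rule of size: with 1 library per condition a difference within a line has no replicate check and no p-value. In T24, 50 of the 52 genes reached the FPKM minimum, and 8 were called lower and 2 higher, where 13.5% of all 12638 genes at that level were called lower and 6.93% higher. In UM-UC-3, 51 reached it, with 6 called lower and 6 higher, against 12.1% and 14% of 13086 genes. Both lines shared 6 lower calls and 2 higher calls, against 6.32% and 2.67% of the 11178 genes that reached the minimum in each line. As shares of the enzyme genes at FPKM 1 these were 16% lower and 4% higher in T24, 11.8% in each direction in UM-UC-3, and 12% lower and 4% higher in both, so most of the counts were near the share over all genes and lower in both lines was the one furthest above it. With libraries scaled by TMM, T24 had 8 lower and 4 higher calls, while UM-UC-3 had 9 lower and 5 higher ones.

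Log2 fold changes are given throughout for FPKM + 0.5, OICR-9429 over DMSO, a scale that understates the change of low genes. The median over the enzyme genes at FPKM 1 was 0.13 for T24 and 0.27 for UM-UC-3, where all genes at FPKM 1 had -0.15 and 0.09. TMM scaling moved the median of all genes by 0.11 in T24 and -0.09 in UM-UC-3. In all, 14 enzyme genes were called in at least 1 line, 38 were called in neither, and none was called in opposite directions. Log2 fold changes of the 38 ran between -0.89 and 0.92 in T24 and between -0.99 and 0.96 in UM-UC-3.

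**Figure D1:**
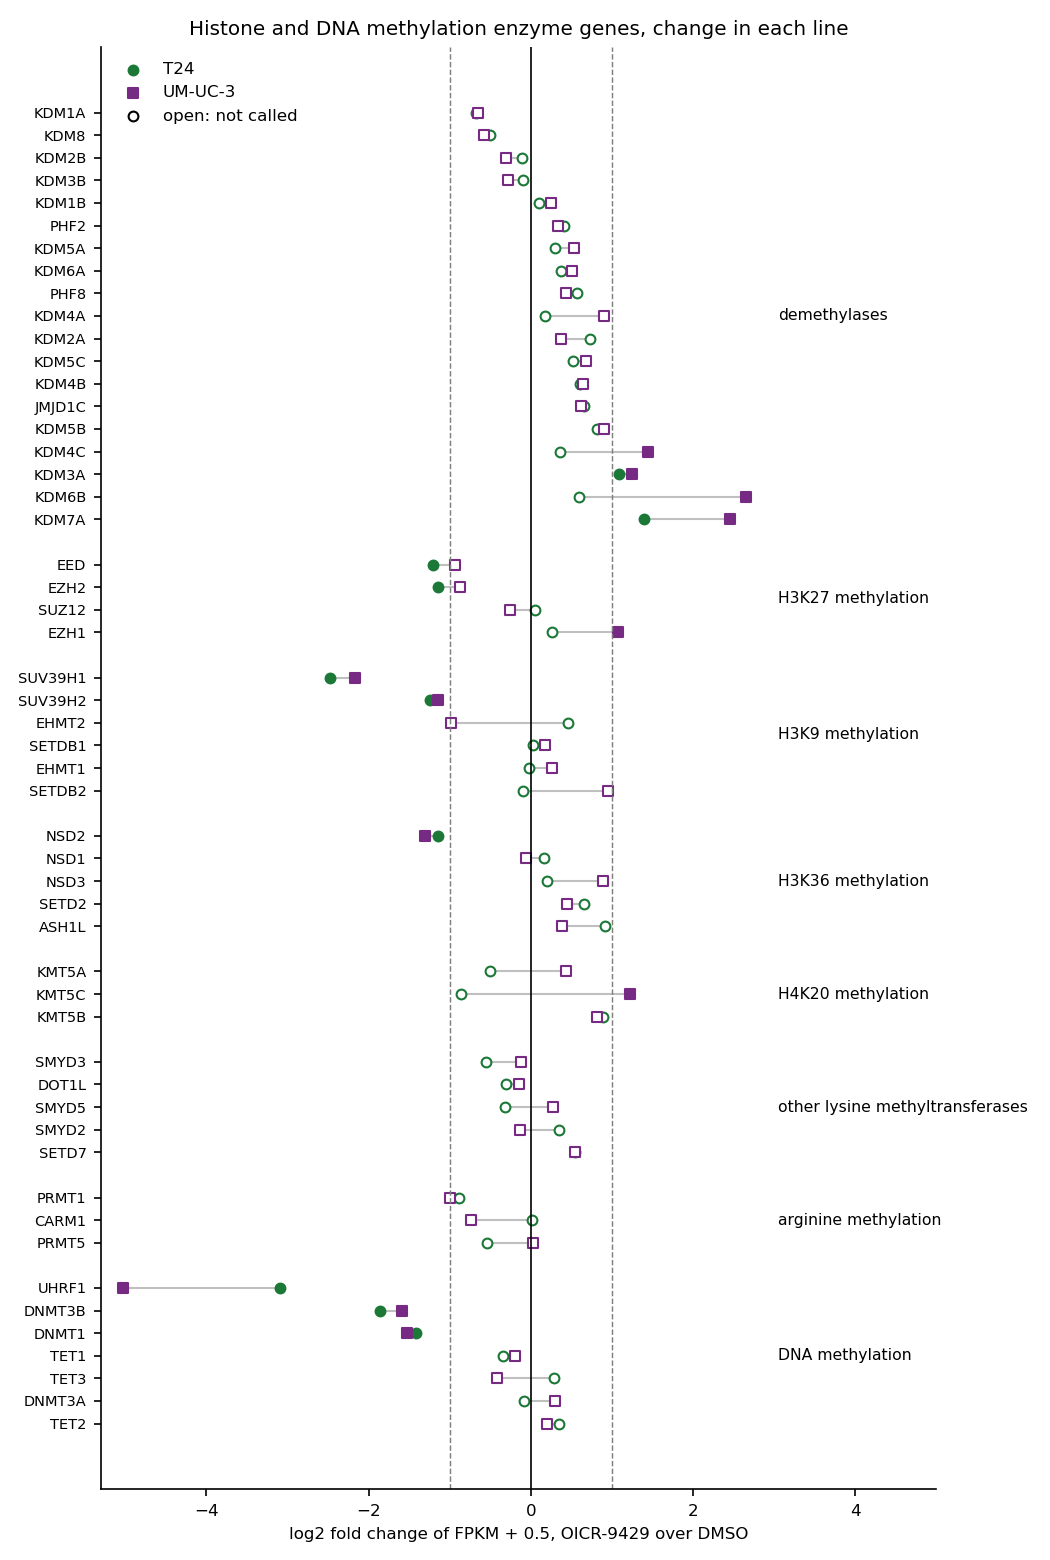
Log2 fold change of FPKM + 0.5, OICR-9429 over DMSO, for the 52 enzyme genes by class (T24 circles, UM-UC-3 squares, 1 library per condition, so no error bars). Filled symbols were called by the size rule and dashed lines mark 2-fold. The demethylases lie mostly right of 0, and the lowest points are UHRF1, SUV39H1 and DNMT3B.

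A test over both lines was possible with the line as a block, and its only replication is the pair of lines. In this limma fit, 3 of the 50 enzyme genes tested fell at an adjusted p under 0.05 (UHRF1, SUV39H1 and DNMT1), which is 6% of them, where 3.11% of all 12584 genes tested fell. The limma fit found 0 that rose, where 0.811% of all genes rose, although 6 had a positive and 10 a negative change at an unadjusted p under 0.05, and the size rule called 2 higher in both lines. These were 32% of the enzyme genes, where 22.6% of all genes tested were under that p. The 6 positive ones were KDM7A, KDM3A, KDM6B, KMT5B, KDM5B and JMJD1C. With 1 residual degree of freedom per gene, the test rests on the spread shared across genes. It made none of the 3 calls without the block or without the FPKM minimum. In those settings it called 0 of all 12584 and 0 of all 31319 genes tested.

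Start sites of some of the genes that were lower carry a word of the E2F family, factors that switch on genes of DNA replication. RefSeq promoters (GRCh38.p14, 250 bases before to 50 after the start) were searched on both strands for TTTCCCGC, TTTCGCGC, TTTGCCGC and TTTGGCGC. The sequences below are shown because they are the matched stretches of called genes. They run 5′ to 3′ on the gene's strand, with the matched word, or its reverse complement, in capitals.
UHRF1: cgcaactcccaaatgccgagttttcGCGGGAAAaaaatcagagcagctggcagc
DNMT1: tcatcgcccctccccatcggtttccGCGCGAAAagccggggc
NSD2: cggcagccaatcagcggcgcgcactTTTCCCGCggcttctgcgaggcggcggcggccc
EZH2: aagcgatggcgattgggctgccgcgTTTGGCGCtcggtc
EZH1: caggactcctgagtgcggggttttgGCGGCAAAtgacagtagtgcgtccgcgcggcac

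These stretches are chr19:4909462-4909515 (plus strand) for UHRF1, chr19:10194939-10194980 (minus) for DNMT1, chr4:1871291-1871348 (plus) for NSD2, chr7:148884277-148884315 (minus) for EZH2 and chr17:42745123-42745180 (minus) for EZH1. Counting the start as base 1, the first capital stood at base -14 from the start in UHRF1, -2 in DNMT1, -77 in NSD2, 2 in EZH2 and -115 in EZH1. Of 50 enzyme genes matched to a promoter, 7 held a word, against 908 (3.33%) of all 27305 promoters in the table. Genes at FPKM 1 in each line had a share of 5.88% (458 of 7789), with a median GC content of 65.7%, near the 66.2% of the enzyme genes and above the 58.3% of all promoters, but only 69.7% of those genes matched a promoter, too few for a check of GC content. Those lower in both lines made up 3 of the 7, and 3 of 6 such genes held one. Among genes higher in a line 1 of 6 did (EZH1), and among those called in neither line 2 of 36 did (KDM1B and SUZ12). Only 1 start per gene was searched, so a gene without a word may hold one at another start. Of the genes lower in both lines without a word, the stretch searched held 3 CpG in DNMT3B, 7 in SUV39H1 and 44 in SUV39H2. The median of the enzyme genes was 28.5. The word TTTGAA, searched the same way for the CHR element of late cell-cycle genes, was in 6 of the 50 and in 2 of the 6 that were lower in both lines, and in 9.19% of the matched genes at FPKM 1 and 15.4% of all promoters. A match is a description of letters, and binding was not analysed here.

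Among the genes of DNA methylation, UHRF1, DNMT1 and DNMT3B were called lower in both lines, and DNMT3A and the TET genes were not called. UHRF1, which reads hemimethylated DNA and recruits DNMT1, had 3.78 FPKM in OICR-9429 and 36.01 FPKM in DMSO in T24, and UM-UC-3 had 0.793 FPKM in OICR-9429 and 41.8 FPKM in DMSO. Counting error is small beside this, since the 95% Poisson interval was 3.47 to 4.10 FPKM in the treated and 35.0 to 37.0 FPKM in the DMSO library of T24, and in UM-UC-3 0.657 to 0.948 FPKM in the treated and 40.7 to 42.8 FPKM in the DMSO library. Both treated libraries lay below both DMSO libraries, and the log2 fold changes, -3.09 for T24 and -5.03 for UM-UC-3, were the lowest of the 52 in each line. How many of all genes keep such an order of the libraries was not counted, here or where it is given below. UHRF1 fell in limma by 4.06 on the log2 scale (SE 0.49, adjusted p = 0.014, 0.000668 to 0.45 over the alternatives).

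DNMT1, the maintenance methyltransferase, stood at 13.7 FPKM in OICR-9429 against 37.2 FPKM in DMSO for T24, and at 11.5 FPKM in OICR-9429 against 34.1 FPKM in DMSO for UM-UC-3. Its levels and its log2 fold changes (-1.41 and -1.53) were close in the lines, and it fell in limma by 1.47 (SE 0.24, adjusted p = 0.034, 0.015 to 0.39 over the alternatives). DNMT3B, a new-methylation enzyme, measured 1.53 FPKM in treated T24 and 6.88 FPKM in T24 with DMSO, and 0.851 FPKM in treated UM-UC-3 and 3.55 FPKM with DMSO, with log2 fold changes of -1.86 and -1.58. It was called lower in both lines and missed the limma threshold (adjusted p = 0.058), and an FPKM minimum of 5 ended its call in UM-UC-3. The related DNMT3A was low in all libraries, at 1.19 FPKM in OICR-9429 and 1.30 FPKM in DMSO in T24, and at 1.48 FPKM in OICR-9429 and 1.11 FPKM in DMSO for UM-UC-3. Its log2 fold changes were -0.09, which turned positive with median-ratio scaling, and 0.29.

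The TET oxidases had no call in either line. TET1 stayed under 1 FPKM in all 4 libraries (0.0954 in OICR-9429 and 0.257 in DMSO for T24, 0.0111 in OICR-9429 and 0.0840 in DMSO for UM-UC-3). The log2 fold change of TET2 was 0.35 (T24) and 0.20 (UM-UC-3), and that of TET3 was 0.29 and -0.42. Summed over the 7 genes, the class had 27.4 FPKM in OICR-9429 and 87.2 FPKM in DMSO in T24, and UM-UC-3 had 19.5 FPKM in OICR-9429 and 86.6 FPKM in DMSO. That was 5.12% of the summed FPKM of all 52 genes in OICR-9429 and 14.4% in DMSO in T24, and in UM-UC-3 it was 3.52% in OICR-9429 and 14.6% in DMSO.

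**Figure D2:**
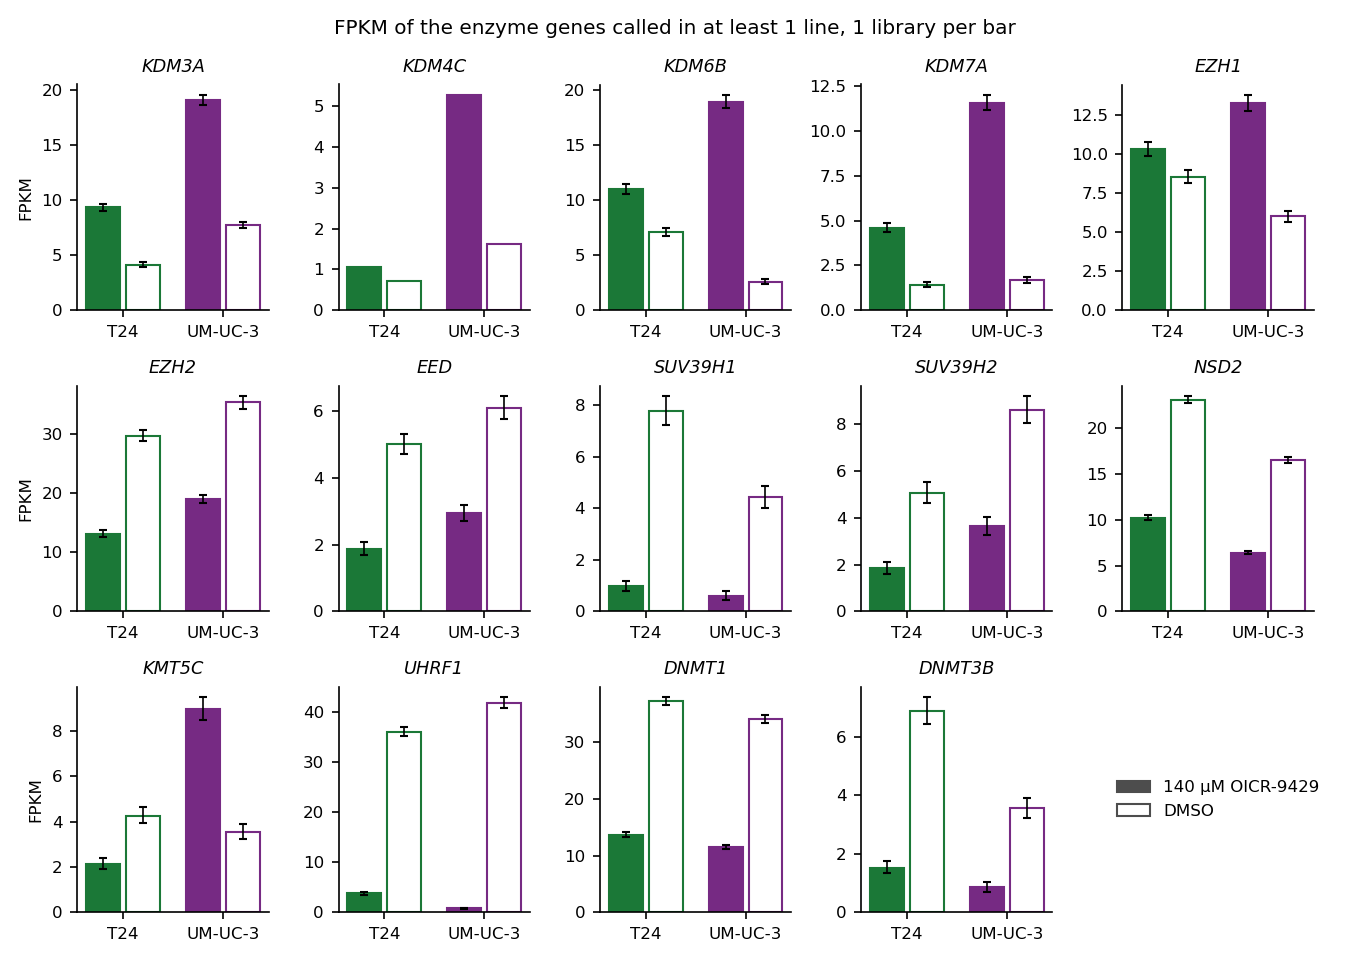
FPKM of the 14 enzyme genes called in at least 1 line, with OICR-9429 as filled and DMSO as open bars, 1 library per bar. Error bars are exact 95% Poisson intervals of the worked-back reads and cover counting error only. KDM4C has none because its reads could not be worked back. UHRF1 is at 3.78 and 0.793 FPKM in the treated libraries, below 36.01 and 41.8 FPKM in DMSO.

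Of the H3K9 methyltransferases, the SUV39 pair was lower in both lines and the other 4 had no call. SUV39H1, which trimethylates H3K9 in heterochromatin, stood at 0.982 FPKM in OICR-9429 against 7.78 FPKM in DMSO for T24, and at 0.6002 FPKM in OICR-9429 against 4.43 FPKM in DMSO for UM-UC-3. These values rest on 97 reads in OICR-9429 and 756 in DMSO for T24 and on 59 reads in OICR-9429 and 421 in DMSO for UM-UC-3, and both treated libraries lay well below both DMSO libraries. The log2 fold changes were -2.48 and -2.16, and SUV39H1 fell in limma by 2.32 (SE 0.35, adjusted p = 0.028, 0.0032 to 0.42 over the alternatives). An FPKM minimum of 5 ended its call in UM-UC-3. SUV39H2, the second enzyme of the pair, measured 1.84 FPKM in treated T24 and 5.04 FPKM in T24 with DMSO, and 3.62 FPKM in treated UM-UC-3 and 8.58 FPKM with DMSO. It was called lower in each line (log2 fold changes of -1.25 and -1.14), with a limma adjusted p of 0.11.

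EHMT2 (G9a) and EHMT1 (GLP), which mono- and dimethylate H3K9 together, were not called in either line. EHMT2 had 15.8 FPKM in OICR-9429 and 11.4 FPKM in DMSO in T24, and UM-UC-3 had 6.44 FPKM in OICR-9429 and 13.2 FPKM in DMSO. Its log2 fold changes of 0.46 and -0.98 pointed in opposite directions, and with TMM scaling it was called lower in UM-UC-3. EHMT1 stood at 5.34 FPKM in OICR-9429 against 5.41 FPKM in DMSO for T24, and at 5.14 FPKM in OICR-9429 against 4.19 FPKM in DMSO for UM-UC-3, differences of less than 1.5-fold. SETDB1, the H3K9 enzyme recruited by TRIM28, had log2 fold changes of 0.02 and 0.17, and the related SETDB2 -0.10 and 0.96. The class median was -0.06 in T24, which became 0.05 with TMM scaling, and -0.40 in UM-UC-3.

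NSD2 was the one H3K36 methyltransferase that was called. NSD2, which dimethylates H3K36, measured 10.2 FPKM in treated T24 and 23.1 FPKM in T24 with DMSO, and 6.43 FPKM in treated UM-UC-3 and 16.6 FPKM with DMSO. It was called lower in both lines (-1.14 and -1.30), with a limma adjusted p of 0.067, and with median-ratio scaling the call in T24 was lost. Its relative NSD1 had 11.3 FPKM in OICR-9429 and 9.98 FPKM in DMSO in T24, and UM-UC-3 had 8.65 FPKM in OICR-9429 and 9.05 FPKM in DMSO. NSD3, the third of the family, stood at 5.27 FPKM in OICR-9429 against 4.52 FPKM in DMSO for T24, and at 8.01 FPKM in OICR-9429 against 4.10 FPKM in DMSO for UM-UC-3. Neither was called, and NSD3 had the larger difference, in UM-UC-3 (0.20 in T24 and 0.89 in UM-UC-3).

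SETD2, the H3K36 trimethylase that travels with RNA polymerase II, measured 15.1 FPKM in treated T24 and 9.44 FPKM in T24 with DMSO, and 16.5 FPKM in treated UM-UC-3 and 12.0 FPKM with DMSO. ASH1L, a further H3K36 methyltransferase, had 13.9 FPKM in OICR-9429 and 7.12 FPKM in DMSO in T24, and UM-UC-3 had 12.5 FPKM in OICR-9429 and 9.47 FPKM in DMSO. Both had higher values in each treated library, and ASH1L was called higher in T24 with TMM scaling (0.92 without it).

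For H3K27 methylation, the EZH2 and EED values were lower in both treated libraries while those of the second catalytic subunit, EZH1, were higher. EZH2, the main catalytic subunit of Polycomb repressive complex PRC2, stood at 13.1 FPKM in OICR-9429 against 29.7 FPKM in DMSO for T24, and at 19.0 FPKM in OICR-9429 against 35.3 FPKM in DMSO for UM-UC-3. Its log2 fold changes were -1.15, called lower, and -0.88, short of 2-fold, with a limma adjusted p of 0.086. EED, the subunit that binds trimethylated H3K27, measured 1.88 FPKM in treated T24 and 5.01 FPKM in T24 with DMSO, and 2.95 FPKM in treated UM-UC-3 and 6.10 FPKM with DMSO. It was called lower in T24 (-1.21), and its -0.94 in UM-UC-3 became a call with TMM scaling.

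EZH1 had 10.3 FPKM in OICR-9429 and 8.55 FPKM in DMSO in T24, and UM-UC-3 had 13.2 FPKM in OICR-9429 and 6.01 FPKM in DMSO. It was called higher in UM-UC-3 only (0.26 and 1.08), a call that TMM and median-ratio scaling removed. SUZ12, the scaffold of PRC2, stood at 23.3 FPKM in OICR-9429 against 22.5 FPKM in DMSO for T24, and at 16.1 FPKM in OICR-9429 against 19.3 FPKM in DMSO for UM-UC-3. Its values were within 1.5-fold in each line, and they are uncertain because a pseudogene copy can share its reads.

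Of the H4K20 methyltransferases, KMT5C and KMT5A had opposite signs in the lines and KMT5B the same sign. KMT5C, which makes the trimethyl mark on H4K20, measured 2.14 FPKM in treated T24 and 4.27 FPKM in T24 with DMSO, and 8.98 FPKM in treated UM-UC-3 and 3.57 FPKM with DMSO. The treated library was the lower one in T24 (log2 fold change -0.86, not called) and the higher one in UM-UC-3 (1.22, called). KMT5B, its partner in H4K20 di- and trimethylation, had 8.16 FPKM in OICR-9429 and 4.17 FPKM in DMSO in T24, and UM-UC-3 had 13.6 FPKM in OICR-9429 and 7.45 FPKM in DMSO. It was higher in both treated libraries by just under 2-fold (0.89 and 0.82) and was called in T24 with TMM scaling. KMT5A, the monomethylase, stood at 13.8 FPKM in OICR-9429 against 19.7 FPKM in DMSO for T24, and at 12.2 FPKM in OICR-9429 against 8.89 FPKM in DMSO for UM-UC-3, and reads can be shared with its pseudogenes.

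Of the 19 demethylases, none was called lower, and 15 had positive log2 fold changes in both lines. Among all genes at FPKM 1, the size rule gave lower calls to 13.5% (T24), 12.1% (UM-UC-3) and 6.32% (both lines). Negative log2 fold changes made up 58.3% of all such genes for T24 and 45.7% for UM-UC-3. How many of all genes were positive in both lines was not counted, so the 15 cannot be set against it. Whether the demethylases differed from these shares was not tested. The class median was 0.47 for T24 and 0.54 for UM-UC-3, against -0.15 and 0.09 over all genes, and it stayed positive with TMM scaling (0.59 and 0.44). Their summed level was 237 FPKM in OICR-9429 and 192 FPKM in DMSO in T24, and in UM-UC-3 it was 250 FPKM in OICR-9429 and 178 FPKM in DMSO. This was 44.3% of the summed FPKM of all 52 genes in OICR-9429 and 31.7% in DMSO in T24, and in UM-UC-3 it was 45.3% in OICR-9429 and 29.9% in DMSO. None of the 18 tested demethylases passed limma's adjusted threshold, with 5 higher and 1 lower at an unadjusted p under 0.05, a level that 22.6% of all genes tested reached.

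KDM7A and KDM3A were the demethylases called higher in both lines. KDM7A, which removes mono- and dimethyl groups from H3K9 and H3K27, measured 4.61 FPKM in treated T24 and 1.44 FPKM in T24 with DMSO, and 11.6 FPKM in treated UM-UC-3 and 1.70 FPKM with DMSO. Both treated libraries lay above both DMSO libraries (1.40 and 2.46), with a limma adjusted p of 0.063, and an FPKM minimum of 5 ended the call in T24. Its relatives PHF2 and PHF8, which also act on H3K9, were not called. PHF2 had 19.4 FPKM in OICR-9429 and 14.4 FPKM in DMSO in T24, and UM-UC-3 had 12.2 FPKM in OICR-9429 and 9.60 FPKM in DMSO. PHF8 stood at 9.67 FPKM in OICR-9429 against 6.34 FPKM in DMSO for T24, and at 3.78 FPKM in OICR-9429 against 2.67 FPKM in DMSO for UM-UC-3.

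KDM3A, an H3K9 demethylase known as a target of hypoxia-inducible factor, measured 9.36 FPKM in treated T24 and 4.15 FPKM in T24 with DMSO, and 19.1 FPKM in treated UM-UC-3 and 7.75 FPKM with DMSO. The treated library was above the DMSO library in each line (1.08 and 1.25), with a limma adjusted p of 0.087. KDM3B, the closest relative, had 17.1 FPKM in OICR-9429 and 18.3 FPKM in DMSO in T24, and UM-UC-3 had 22.1 FPKM in OICR-9429 and 27.1 FPKM in DMSO. Its log2 fold changes were -0.09, positive with TMM scaling, and -0.28. JMJD1C, the third of this family, stood at 27.7 FPKM in OICR-9429 against 17.4 FPKM in DMSO for T24, and at 19.2 FPKM in OICR-9429 against 12.3 FPKM in DMSO for UM-UC-3 (0.66 and 0.63, not called).

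KDM6B and KDM4C were called higher in UM-UC-3 and not in T24. KDM6B (JMJD3), an H3K27 demethylase induced by inflammatory and stress signals, measured 11.0 FPKM in treated T24 and 7.14 FPKM in T24 with DMSO, and 19.0 FPKM in treated UM-UC-3 and 2.58 FPKM with DMSO. Its log2 fold changes were 0.60 and 2.66, the UM-UC-3 value being the highest of the 52 genes, and the DMSO level was lower in UM-UC-3 than in T24. KDM6A (UTX), the X-linked relative, had 2.95 FPKM in OICR-9429 and 2.16 FPKM in DMSO in T24, and UM-UC-3 had 5.36 FPKM in OICR-9429 and 3.61 FPKM in DMSO, with no call.

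KDM4C, which demethylates H3K9 and H3K36, stood at 1.05 FPKM in OICR-9429 against 0.711 FPKM in DMSO for T24, and at 5.26 FPKM in OICR-9429 against 1.61 FPKM in DMSO for UM-UC-3 (0.36 and 1.45). KDM4A measured 17.7 FPKM in treated T24 and 15.6 FPKM in T24 with DMSO, and 25.1 FPKM in treated UM-UC-3 and 13.1 FPKM with DMSO. KDM4B had 4.71 FPKM in OICR-9429 and 2.93 FPKM in DMSO in T24, and UM-UC-3 had 3.30 FPKM in OICR-9429 and 1.93 FPKM in DMSO. All 3 KDM4 genes had higher values in the treated library of each line, and 1 of the 6 differences reached a call.

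The other demethylases were not called. KDM1A (LSD1), the H3K4 demethylase with the highest mean level among them, stood at 20.9 FPKM in OICR-9429 against 33.6 FPKM in DMSO for T24, and at 19.5 FPKM in OICR-9429 against 31.0 FPKM in DMSO for UM-UC-3. It was the most abundant gene of its class in both DMSO libraries, and its log2 fold changes were alike, at -0.67 and -0.65. Its relative KDM1B had 0.10 and 0.26. The H3K4 demethylases KDM5A, KDM5B and KDM5C had log2 fold changes of 0.29, 0.82 and 0.52 (T24) and of 0.54, 0.90 and 0.68 (UM-UC-3). KDM2A, an H3K36 demethylase that binds unmethylated CpG, had 0.73 and 0.37, and KDM2B -0.11 and -0.30. KDM8 was low, at 0.312 FPKM in OICR-9429 and 0.652 FPKM in DMSO in T24, and at 0.764 FPKM in OICR-9429 and 1.38 FPKM in DMSO for UM-UC-3.

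Arginine methyltransferases and the other lysine methyltransferases had no call. PRMT1, the enzyme of most asymmetric arginine dimethylation, was the most abundant of the 52 genes in every library, with 29.5 FPKM in OICR-9429 and 55.0 FPKM in DMSO for T24, and with 34.2 FPKM in OICR-9429 and 68.6 FPKM in DMSO for UM-UC-3. On the scale of FPKM + 0.5 the treated libraries were lower by just under 2-fold (-0.89 and -0.99, limma adjusted p = 0.084). TMM scaling made this a call in UM-UC-3. CARM1, which methylates H3 arginines, measured 25.2 FPKM in treated T24 and 24.9 FPKM in T24 with DMSO, and 12.5 FPKM in treated UM-UC-3 and 21.2 FPKM with DMSO. PRMT5, the enzyme of symmetric dimethylation, had log2 fold changes of -0.54 (T24) and 0.03 (UM-UC-3), and TMM scaling turned the sign of the UM-UC-3 value.

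SMYD5, one of the SET and MYND domain proteins, had 14.6 FPKM in OICR-9429 and 18.3 FPKM in DMSO in T24, and UM-UC-3 had 28.7 FPKM in OICR-9429 and 23.6 FPKM in DMSO. SETD7, an H3K4 monomethylase that also acts on other proteins, stood at 11.8 FPKM in OICR-9429 against 7.90 FPKM in DMSO for T24, and at 13.5 FPKM in OICR-9429 against 9.11 FPKM in DMSO for UM-UC-3. SETD7 had nearly the same log2 fold change in the lines (0.55 and 0.54). DOT1L, the H3K79 methyltransferase, had -0.31 and -0.14, SMYD2 0.35 and -0.14, and SMYD3 -0.56 and -0.12.

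Within families of related enzymes, the share of each member in the family's summed FPKM does not depend on how the libraries are scaled. EZH2 made up 56.0% of EZH1 plus EZH2 in OICR-9429 and 77.6% in DMSO in T24, and in UM-UC-3 it was 58.9% in OICR-9429 and 85.5% in DMSO. DNMT3B made up 56.2% of DNMT3A plus DNMT3B in OICR-9429 and 84.1% in DMSO in T24, and in UM-UC-3 it was 36.6% in OICR-9429 and 76.2% in DMSO, where DNMT3A was the larger part in the treated library alone. EZH2 and DNMT3B thus held a smaller share in both treated libraries than in either DMSO library.

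NSD2 made up 38.2% of the 3 NSD genes in OICR-9429 and 61.5% in DMSO in T24, and in UM-UC-3 it was 27.9% in OICR-9429 and 55.7% in DMSO. SUV39H1 made up 34.8% of the SUV39 pair in OICR-9429 and 60.7% in DMSO in T24, and in UM-UC-3 it was 14.2% in OICR-9429 and 34.1% in DMSO. The share of SUV39H1 was thus the smaller one in the treated library of each line, although both genes of the pair were called lower. Among demethylases, KDM7A made up 13.7% of KDM7A, PHF2 and PHF8 in OICR-9429 and 6.47% in DMSO in T24, and in UM-UC-3 it was 41.9% in OICR-9429 and 12.2% in DMSO.

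KDM6B made up 79.0% of KDM6A plus KDM6B in OICR-9429 and 76.8% in DMSO in T24, and in UM-UC-3 it was 78.0% in OICR-9429 and 41.7% in DMSO. The DMSO library of UM-UC-3 was the one in which KDM6A was the larger part. KMT5C made up 20.7% of KMT5B plus KMT5C in OICR-9429 and 50.6% in DMSO in T24, and in UM-UC-3 it was 39.9% in OICR-9429 and 32.4% in DMSO, opposite directions in the lines.

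**Figure D3:**
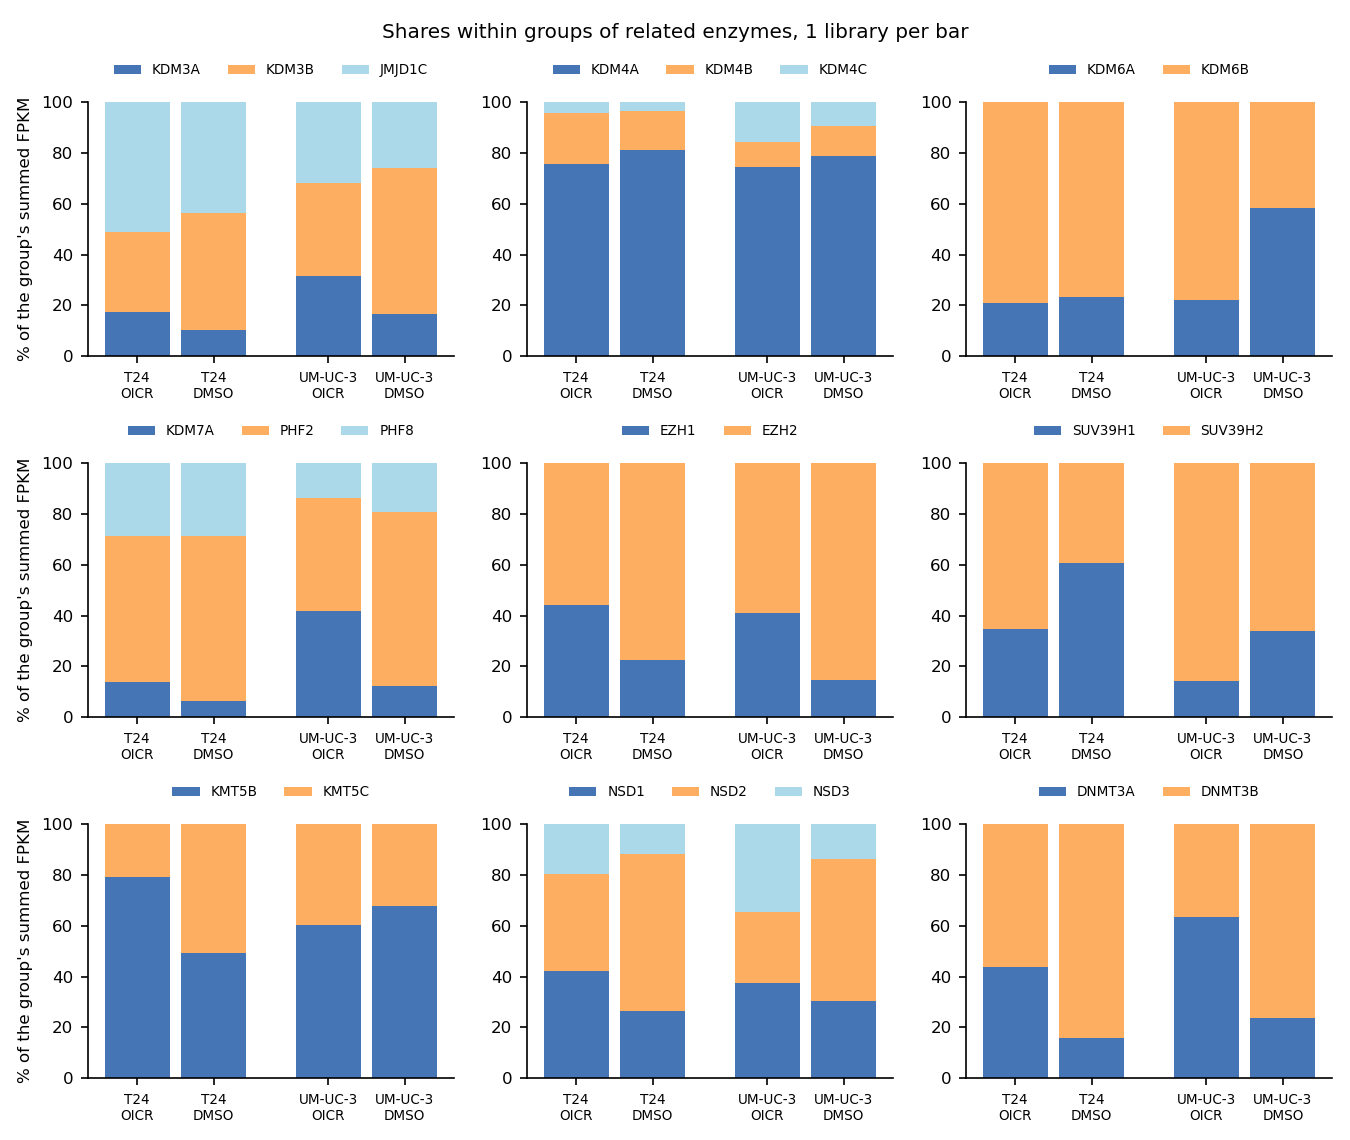
Percent of the summed FPKM of 9 families of related enzymes held by each member, 1 library per bar, OICR-9429 left of DMSO in each line. EZH2 holds 56.0% and 58.9% in the treated libraries, below 77.6% and 85.5% in DMSO.

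Set side by side, the lines mostly gave the same sign. Over the 50 enzyme genes at FPKM 1 in each line, 37 had the same sign in both and 13 opposite signs, and across genes Pearson's r was 0.82 and Spearman's rho 0.70. Over all 11178 genes the correlations were 0.65 and 0.56. The share of those genes with the same sign in both lines was not counted, so the 37 cannot be set against it. These describe 2 pairs of libraries, and genes are not independent replicates. KMT5C was the only enzyme gene that differed by at least 1.5-fold in opposite directions, with KDM6B and UHRF1 next in the distance between lines (T24 minus UM-UC-3, -2.08 for KMT5C, -2.06 for KDM6B and 1.94 for UHRF1). The design leaves no error with which to test a difference between the lines.

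**Figure D4:**
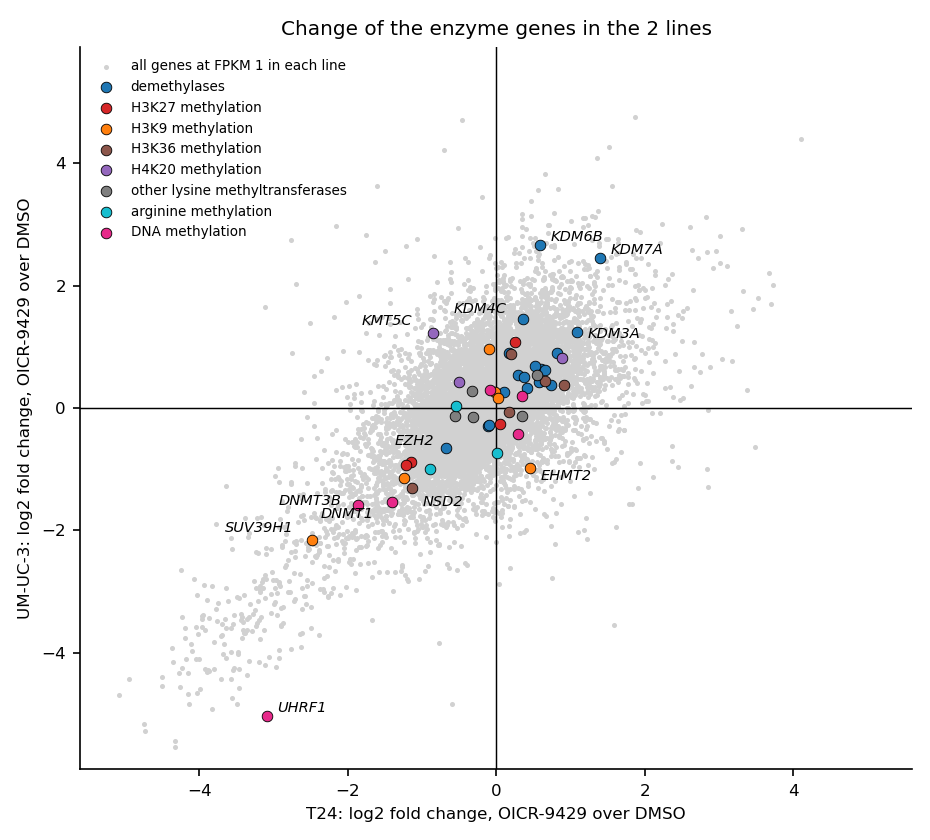
Log2 fold change of FPKM + 0.5, OICR-9429 over DMSO, in UM-UC-3 (vertical) against T24 (horizontal) for the 50 enzyme genes at FPKM 1 in each line, coloured by class, over all 11178 such genes in grey. UHRF1 sits at -3.09 and -5.03, KDM6B at 0.60 and 2.66, and KMT5C in the quadrant of opposite signs.

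Partner genes of these enzymes were counted by the same rules. Of 9 PRC2 accessory subunits, RBBP7, MTF2 and PHF19 were called lower and PHF1 higher in both lines, where 6.32% and 2.67% of all genes were. EPOP was called higher in UM-UC-3 (1.15) and had -0.12 in T24. RBBP7, a histone-binding subunit, had 15.9 FPKM in OICR-9429 and 36.6 FPKM in DMSO in T24, and UM-UC-3 had 13.8 FPKM in OICR-9429 and 30.4 FPKM in DMSO. MTF2, a Polycomb-like protein, stood at 2.79 FPKM in OICR-9429 against 9.25 FPKM in DMSO for T24, and at 3.04 FPKM in OICR-9429 against 6.86 FPKM in DMSO for UM-UC-3. For RBBP7 and MTF2 both treated libraries lay below both DMSO libraries, an order that was not counted over all genes. PHF19, a Polycomb-like protein that reads methylated H3K36, measured 3.90 FPKM in treated T24 and 19.6 FPKM in T24 with DMSO, and 2.69 FPKM in treated UM-UC-3 and 23.9 FPKM with DMSO, and fell in limma (adjusted p = 0.016). The Polycomb-like PHF1 had 32.4 FPKM in OICR-9429 and 15.2 FPKM in DMSO in T24, and UM-UC-3 had 38.7 FPKM in OICR-9429 and 10.7 FPKM in DMSO. So the related PHF19 and PHF1 differed in direction, and limma did not call PHF1 (adjusted p = 0.055).

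Of 12 readers and partners of DNA methylation, HELLS and CDCA7, which form one remodelling complex, were called lower in both lines, as UHRF1 and DNMT1 were. The share of all genes lower in both lines was 6.32%. HELLS stood at 1.39 FPKM in OICR-9429 against 7.36 FPKM in DMSO for T24, and at 1.71 FPKM in OICR-9429 against 10.3 FPKM in DMSO for UM-UC-3. CDCA7 measured 8.30 FPKM in treated T24 and 37.3 FPKM in T24 with DMSO, and 3.31 FPKM in treated UM-UC-3 and 31.1 FPKM with DMSO. Both fell in limma (adjusted p = 0.030 for HELLS and 0.016 for CDCA7). MBD4, a DNA glycosylase, was called lower in T24 (-1.15) and had 0.78 in UM-UC-3, and MBD1 was called higher in UM-UC-3 (1.02).

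Among 17 PRC1 subunits, CBX2 was called lower (-1.42) and CBX7 (1.39) and PHC1 (1.05) higher in UM-UC-3, and these 3 were not called in T24. For this and the next 3 lists, the shares over all genes were 13.5% lower and 6.93% higher in T24. They were 12.1% lower and 14% higher in UM-UC-3, and 6.32% lower in both lines. Whether these lists differed from those shares was not tested. Of 8 HP1 proteins and H3K9 partners, CBX1 was called lower in T24 (-1.24) and was just short of 2-fold in UM-UC-3 (24.99 FPKM in OICR-9429 and 50.4 FPKM in DMSO). Of 9 LSD1 partners none was called in either line by the size rule, and none passed limma's adjusted threshold. At an unadjusted p under 0.05 in limma there were 2, a level that 22.6% of all genes tested reached. Of 10 other arginine methyltransferases and partners, PRMT7 was called lower in both lines, at 3.72 FPKM in OICR-9429 and 8.27 FPKM in DMSO for T24, and at 2.04 FPKM in OICR-9429 and 5.03 FPKM in DMSO for UM-UC-3. PRMT3 (-1.04) and PRMT6 (-1.42) were called lower in T24, and WDR77 (-1.21), the partner of PRMT5, in UM-UC-3. BTG1, which binds PRMT1, was called higher in UM-UC-3 (2.47).

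Cofactor supply was counted in the same way. Each line had 1 lower and 1 higher call among the 7 genes listed for the S-adenosylmethionine cycle. Over all genes, T24 had 13.5% lower and 6.93% higher calls, and UM-UC-3 had 12.1% and 14%. The all-gene share for higher in both lines was 2.67%. Whether the cofactor lists differed from these shares was not tested. In the list for this cycle, which makes the methyl donor, AHCYL2 was called higher in both lines, at 8.74 FPKM in OICR-9429 and 3.44 FPKM in DMSO for T24, and at 13.2 FPKM in OICR-9429 and 4.10 FPKM in DMSO for UM-UC-3. Whether AHCYL2 acts in the cycle was not examined here. MTR was called lower in T24 (-1.39). MAT2A, the enzyme that makes S-adenosylmethionine, had 63.4 FPKM in OICR-9429 and 76.2 FPKM in DMSO in T24, and UM-UC-3 had 85.7 FPKM in OICR-9429 and 196 FPKM in DMSO. It was called lower in UM-UC-3. Of 10 genes of 2-oxoglutarate supply, IDH1 was the one call, a higher level in UM-UC-3. It had 60.0 FPKM in OICR-9429 and 9.66 FPKM in DMSO there, and 40.6 FPKM in OICR-9429 and 27.6 FPKM in DMSO in T24.

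**Figure D5:**
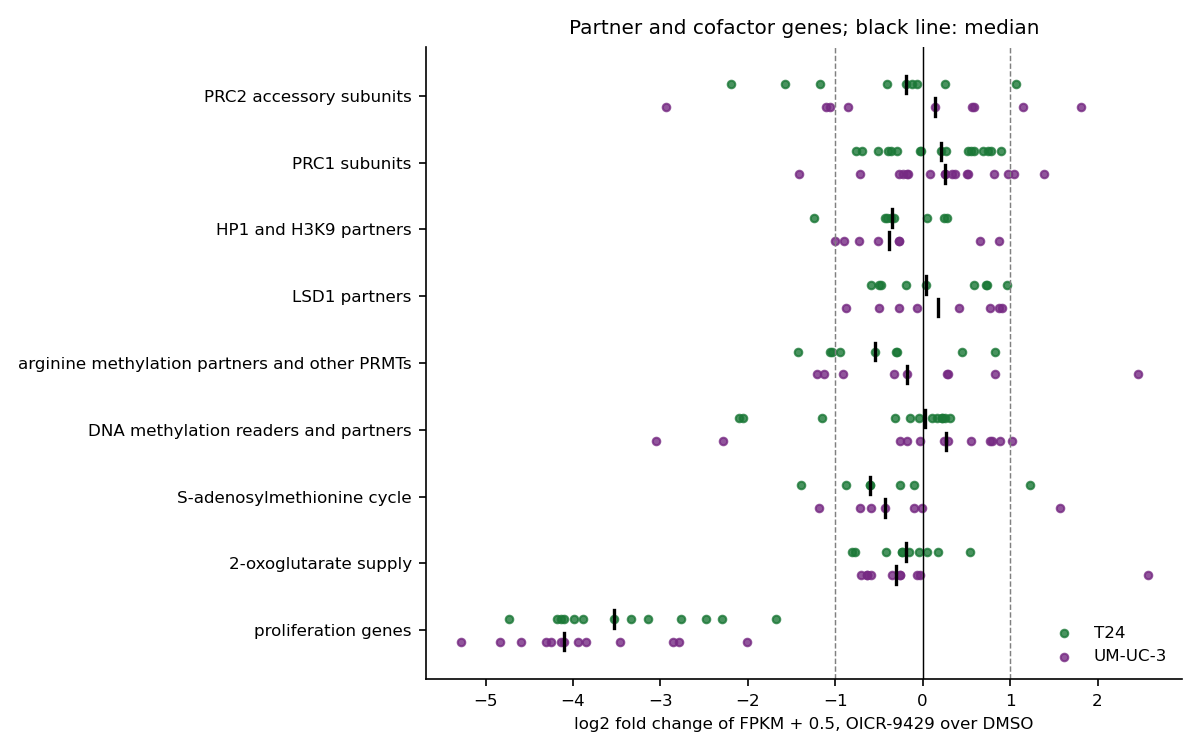
Log2 fold change of FPKM + 0.5, OICR-9429 over DMSO, of each partner, cofactor and proliferation gene (T24 above UM-UC-3 in each list, black line the median of genes at FPKM 1, dashed lines 2-fold). The 13 proliferation genes have medians of -3.53 and -4.11.

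The proliferation list moved further than any class of the enzymes. Its medians, -3.53 for T24 and -4.11 for UM-UC-3, compare with -0.75 and -0.97 over the DNA methylation genes. UHRF1 (-3.09 and -5.03) lay within the range of that list in each line (-4.73 to -1.67 in T24 and -5.28 to -2.00 in UM-UC-3), as did SUV39H1 (-2.48 and -2.16), while DNMT1 (-1.41 and -1.53) lay above it. In bulk RNA, fewer cells in a phase of the cycle and less RNA per cell cannot be told apart.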

How the data were processed

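The authors deposited FPKM values for 1 library per line and condition. The submitters' processing notes list HTSeq 0.6.1, HISAT2 2.1.0 and bcl2fastq 2.19.1, with hg19 as the build, and the paper's methods give Ensembl references. Whether counting used strand is not given in the sources used here, so overlapping and antisense genes cannot be told apart.

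With GENCODE 29 exon lengths, FPKM came out as whole reads for 29029 genes (92.7%, tolerance 1e-06), among them 42 of the 52 enzyme genes. Poisson intervals use these reads and cover counting error only. Of the 52, 50 matched by symbol, and NSD2 and NSD3 by identifier.

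The study's methods name DEGseq and state n = 4 without saying of what. The labels give 1 library per line and condition, so the size rule was used in place of that tool, and limma 3.58.1 (R 4.3.3, trend) was fitted to log2(FPKM + 0.5) with line and treatment, over genes at FPKM 1 in at least 2 libraries, with Benjamini-Hochberg adjustment over all genes. The labels pair treated and DMSO libraries by line. They do not say whether libraries came from separate cultures. Levels in all libraries are given for genes called in a line, the 2 most abundant of each class and the relatives of called genes. Of each further list up to 4 called genes, by mean absolute change, are named, with levels in all libraries for those called in both lines, and EPOP and PRMT3 were added after their values were seen. Enzyme genes and lists were chosen with earlier results of these data known. Scripts used Python 3.11.15 and were tested on simulated data. NSD3 and DOT1L had no promoter entry. Of the further lists, 2 genes are left out and not reported here.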

Additional observations from a re-analysis of the deposited data

Results flagged for a closer look

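KMT5C, the H4K20 trimethylase, had a log2 fold change (OICR-9429 over DMSO) that was -0.86 for T24 and 1.22 for UM-UC-3. It is listed here because its single pair of libraries moved by at least 1.5-fold in each line, in opposite directions. The difference between the lines was not tested.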

How the results depend on the processing

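With the fold set at 1.5, counts of calls were 10 higher in T24, 12 lower and 14 higher in UM-UC-3, and 10 lower and 7 higher in both lines. With a fold of 3 they were 3 lower and 0 higher in T24, 2 lower and 2 higher in UM-UC-3, and 2 lower and 0 higher in both. An FPKM minimum of 5 left 1 higher in T24 and 1 in both, KDM3A, since KDM7A in T24 was under it, and 4 lower in UM-UC-3 and 4 lower in both, since SUV39H1 and DNMT3B in UM-UC-3 were. TMM and median-ratio scaling each gave 4 higher in T24, adding ASH1L and KMT5B. An exact binomial test of worked-back reads compares libraries and not conditions, has no fold threshold and could be made for 42 of the 52 enzyme genes. It called 18 lower and 19 higher in T24, 17 lower and 22 higher in UM-UC-3, and 13 lower and 16 higher in both. Shares of all genes called were not counted under these alternatives.

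Without the replicate block for cell line, limma called 0 that fell and 0 that rose, with 7 and 2 at an unadjusted p under 0.05. With no FPKM minimum it called 0 and 0 (10 and 6 unadjusted). Over all genes too, both settings gave 0 that fell and 0 that rose. Without the trend, limma called 2 that fell, UHRF1 and SUV39H1, so the DNMT1 call was lost. An FPKM minimum of 5 also gave 2, UHRF1 and DNMT1, with SUV39H1 not tested. Over all genes 323 fell without the trend and 427 with that minimum. TMM and median-ratio scaling each gave 5 that fell, adding DNMT3B and NSD2. Over all genes 686 fell with TMM and 695 with median-ratio scaling, where the main fit had 391. The count that rose was 1 with a pseudocount of 0.1 (KDM7A), 2 with TMM (KDM3A and KDM7A) and 3 with median-ratio scaling (also KDM6B). Over all genes 170, 328 and 370 rose in these settings, where the main fit had 102. Leaving out a library or a line leaves limma no residual degree of freedom, so the values of each line stand for it.

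Of 416 values of single genes under alternatives, 139 moved past a margin and 0 called values changed sign. The margin was set by the width of the counting interval, or was fixed where reads could not be worked back. Of 64 class medians 23 moved, and 2 changed sign, both for H3K9 methylation in T24. Depth limits TET1, KDM8, DNMT3A and the treated libraries of SUV39H1. It also limits DNMT3B in treated T24 (208 reads) and treated UM-UC-3 (115), UHRF1 in treated UM-UC-3 (119) and SUV39H2 in treated T24 (192).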
